A study of Homo sapiens with 46 samples.

Results

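ND1 silencing was compared with the pCox4 control in 8 of the 46 RNA-seq libraries of the series, 4 of each condition. The 8 libraries were taken by their condition labels and by no measured value, and every gene was examined. All cells were HEK293T, here a line of the HEK293-Flp-In T-Rex kind that stems from human embryonic kidney. The ND1 cells received for 48 hours, at 2 µM, a chimera in which a morpholino against the start of the ND1 mRNA is joined to pCox4, a yeast presequence that proteins use as an address label for mitochondria. The control cells received pCox4 in the buffer of the click reaction, and both conditions were delivered with Endo-Porter, a peptide that helps cargo leave endosomes. The control thus held no morpholino, so within these 8 libraries an effect of any morpholino and an effect of this sequence cannot be told apart. The 38 libraries of the other 10 chimera treatments, each of which carries another morpholino, served for that comparison and entered the same fit. Batch 1 holds replicates 1 and 2 of each condition and batch 2 holds replicates 3 and 4, and days and reagents differed between the batches. A single cell line was used, the treatments were transient, and RNA was read at a single time.

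ND1 is a core subunit of the membrane arm of complex I, the enzyme that takes electrons from NADH, hands them to ubiquinone and pumps protons across the inner mitochondrial membrane. Its gene lies on mtDNA, whose heavy strand is copied into a long precursor in which tRNAs stand between the rRNAs and mRNAs and are cut out to release them. In the stretch around the target the order of genes is MT-RNR2 (the large mitochondrial ribosomal RNA), MT-TL1 (a leucine tRNA), MT-ND1, the tRNA genes MT-TI, MT-TQ and MT-TM, and MT-ND2. A morpholino is an antisense oligomer with an uncharged backbone; laid over a start codon it blocks translation and does not recruit RNase H.

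The target site and its neighbour are shown because the altered mtDNA transcripts surround them. The site covers the first 17 bases of MT-ND1 (MT:3307-3323, plus strand, GRCh38, in the coding sequence; capitals mark the first codon), and the morpholino is its reverse complement (capitals mark the complement of that codon). The third sequence holds the last 30 bases of MT-TL1 (MT:3275-3304, plus strand, a tRNA gene), which ends 2 bases before MT-ND1 begins. All were read from the GENCODE 29 transcripts.
MT-ND1 target site: ATAcccatggccaacct
ND1 morpholino: aggttggccatgggTAT
MT-TL1 3′ end: cagtcagaggttcaattcctcttcttaaca

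The ND1 libraries held 23042591 to 25979534 counts and the control libraries 19944731 to 22664329, against a median of 23413171 over all 46. Counts were converted to CPM, a count relative to the size of its library after TMM scaling, which corrects for the makeup of the library, and 20272 of 58735 genes passed the filter on low counts. Replicates differed by more than sampling noise (chi-square over degrees of freedom of 3.31 to 11.9), so none was a copy of another. The 7 HEK293 markers (VIM, KRT8, KRT18, NES, NEFM, NEFL and PAX2) all passed the filter on low counts. Together they held 1080 to 1237 CPM in the ND1 libraries and 1056 to 1225 CPM in the control. The 8 markers of other cell types (PTPRC, CD3E, HBA1, ALB, PECAM1, COL1A2, TYR and SFTPC) had between 0 and 13 counts in each of the 8 libraries. Genes of mtDNA took 4.45% ± 0.402 of the counts upon ND1 silencing and 4.56% ± 0.414 in the control (SD, n = 4 each), a difference of -0.11 percentage points that did not pass a two-sided exact permutation test (p = 0.82857, where the smallest p of 4 against 4 libraries is 0.028571). Within batches the difference was -0.02 in batch 1 and -0.20 in batch 2. In bulk RNA, a lower level per cell and fewer cells with the RNA cannot be told apart.

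Among the genes called, MT-TL1 differed most. Upon ND1 silencing MT-TL1 (ENSG00000209082, MT:3230-3304) stood at 4.91, 5.56, 6.39 and 7.75 CPM in replicates 1 to 4, from 126 to 189 raw counts a library. The control replicates stood at 23.6, 22.8, 26.0 and 26.0 CPM, from 518 to 549 raw counts. The 2 conditions were thus far apart in both batches, with each ND1 library at 21.2% to 29.8% of the control of its batch. The log2 difference was -2.0 (standard error 0.16, adjusted p = 3.28e-13 by the quasi-likelihood test of edgeR with Benjamini-Hochberg adjustment over all genes tested). Leaving out each of the 8 libraries in turn gave log2 differences from -2.16 to -1.87, with the call kept each time. MT-TL1 is a tRNA gene of 75 bases, and in libraries enriched for poly(A) tails a read on it may come from the tRNA or from a longer precursor. The table of counts per gene cannot tell these apart.

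The targeted mRNA moved the other way. MT-ND1 (ENSG00000198888, MT:3307-4262) was at 2358, 2614, 3014 and 2706 CPM in the ND1 libraries. In the control libraries it was at 1425, 1397, 1613 and 1756 CPM. Every ND1 library lay above every control library, at 161% to 185% of the control of its batch, and the log2 difference was 0.79 (standard error 0.068, adjusted p = 3.50e-12, edgeR). Set against the same library's MT-TL1, the shift was wider. For every 100 counts on MT-ND1 there were 1.65, 1.63, 1.61 and 1.48 counts on MT-TL1 in the control libraries and 0.208, 0.213, 0.212 and 0.287 in the ND1 libraries. This ratio within a library does not depend on the library size, and its 2 ranges did not overlap. The MT-ND1 pseudogenes in nuclear DNA could take or lend reads. MTND1P23 (chromosome 1, 629062 to 629433) had 2 to 10 counts in the control and 11 to 24 in the ND1 libraries (log2 difference 1.2, standard error 0.39, adjusted p = 0.169), and with all pseudogene counts added to MT-ND1 its log2 difference was again 0.79.

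**Figure D1:**
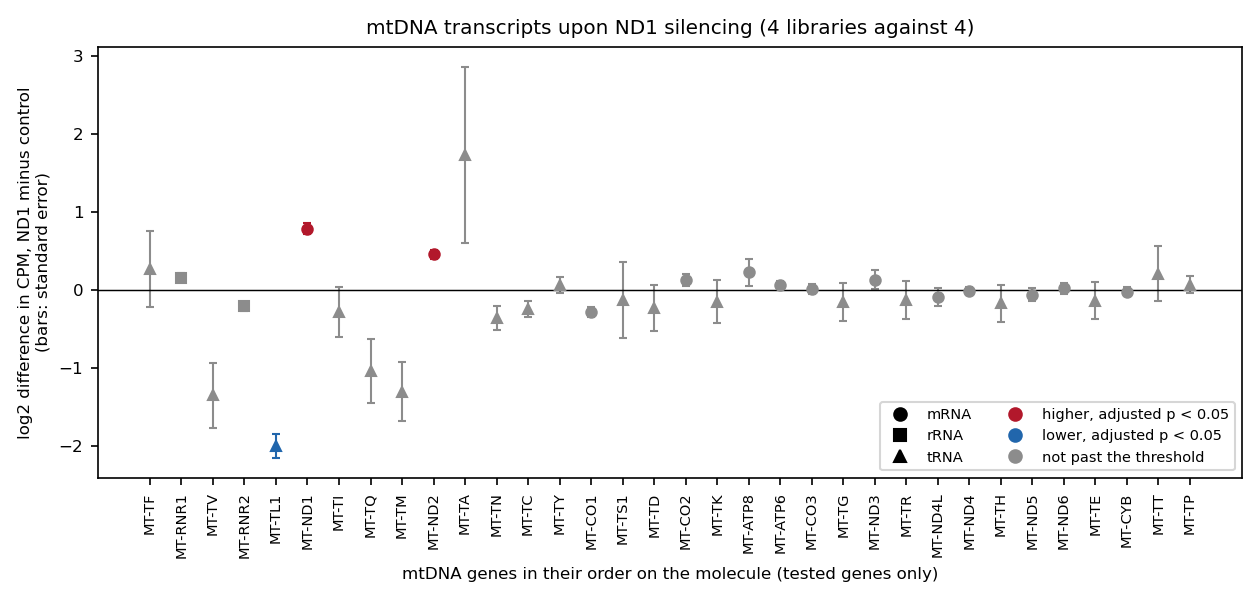
Log2 difference in CPM between the 4 ND1 and 4 control libraries (y axis, bars are standard errors) for the 34 mtDNA genes tested, in the order of the genes. MT-TL1 lies at -2.0, MT-ND1 at 0.79 and MT-ND2 at 0.46, while the wide bars of MT-TV, MT-TQ, MT-TM and MT-TA belong to genes with a mean of under 3 CPM.

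MT-ND2, the next mRNA of the precursor after MT-ND1, rose as well. MT-ND2 (ENSG00000198763, MT:4470-5511), which encodes another core subunit of the membrane arm, was at 2932, 3319, 3375 and 2807 CPM in the ND1 libraries. The control libraries were at 2093, 2034, 2412 and 2567 CPM. The groups did not overlap, and the log2 difference was 0.46 (standard error 0.062, adjusted p = 6.39e-06, edgeR), larger in batch 1 (0.60) than in batch 2 (0.32) by a margin that did not pass the test over all genes (difference -0.29, adjusted p = 0.997). The 2 mRNAs shifted by less against each other than MT-ND1 and MT-TL1 did. MT-ND1 stood at 66.9 to 68.7 counts per 100 counts of MT-ND2 in the control and at 78.8 to 96.4 in the ND1 libraries. MTND2P28 (chromosome 1, 629640 to 630683, plus strand), a nuclear copy of MT-ND2 whose reads may be those of MT-ND2, was higher by 0.54 (standard error 0.073, adjusted p = 6.39e-06). It had 3410 to 3735 counts in the ND1 libraries and 2028 to 2479 in the control.

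Between MT-ND1 and MT-ND2 lie 3 tRNA genes with few counts. MT-TM was at 0.205 to 0.617 CPM in the ND1 libraries and 0.544 to 1.33 CPM in the control, with overlap (log2 difference -1.30, standard error 0.37, adjusted p = 0.122). MT-TQ, on the minus strand, differed by -1.03 (standard error 0.41, adjusted p = 0.279) and MT-TI by -0.28 (standard error 0.32, adjusted p = 0.793). At such levels the reads behind each value are few, and none of the 3 passed the threshold. Over the 19 mtDNA tRNA genes tested, 14 had a negative log2 difference, the median was -0.15, and MT-TL1 was the only member called.

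The ribosomal RNA genes before MT-TL1 did not pass the threshold against the control. MT-RNR2 (MT:1671-3229), which abuts MT-TL1, was at 3022, 3072, 3751 and 2981 CPM in the ND1 libraries and at 3503, 3503, 4096 and 3726 CPM in the control (log2 difference -0.21, standard error 0.063, adjusted p = 0.138). ND1 replicate 3 overlapped the control. MT-RNR1, the small ribosomal RNA, differed by 0.16 (standard error 0.062, adjusted p = 0.262). The 2 rRNAs thus lay on opposite sides of 0, and MT-ND1 stood at 39.4 to 47.1 counts per 100 counts of MT-RNR2 in the control and at 78.0 to 90.8 in the ND1 libraries.

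Of the other 11 mtDNA mRNAs, none passed the threshold. MT-CO1, the core subunit of complex IV, came closest: it was at 8924, 9300, 11475 and 9957 CPM in the ND1 libraries and at 12360, 11115, 12487 and 12044 CPM in the control. Only ND1 replicate 3 reached into the range of the control, and the log2 difference was -0.28 (standard error 0.068, adjusted p = 0.0784). The call was made in 7 of 11 other fits of all replicates, among them the replicate block in place of the batch (-0.28, adjusted p = 0.0315), both DESeq2 fits, the 8 libraries alone, no filter on low counts and the removal of trends on gene length or GC content. It was not made without a batch term, with other size factors, with a stricter filter or with library sizes from nuclear genes. Of the 8 fits that left out 1 library, the call was made in 1, without ND1 replicate 3 (-0.35, adjusted p = 0.0425). MT-ATP8 differed by 0.23, MT-ND3 by 0.14, MT-CO2 by 0.13, MT-ATP6 by 0.06, MT-ND6 by 0.02 and MT-CO3 by 0.01. On the other side of 0 were MT-ND4L at -0.09, MT-ND5 at -0.06, MT-CYB at -0.02 and MT-ND4 at -0.01, with adjusted p values from 0.505 to 0.981 for these 10 mRNAs. Reads where MT-ATP8 and MT-ATP6 share bases, or MT-ND4L and MT-ND4, may have gone to either gene. Scaled to the sum of the 12 other mtDNA mRNAs, MT-ND1 was higher by 0.82 on the log2 scale and was again called.

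**Figure D2:**
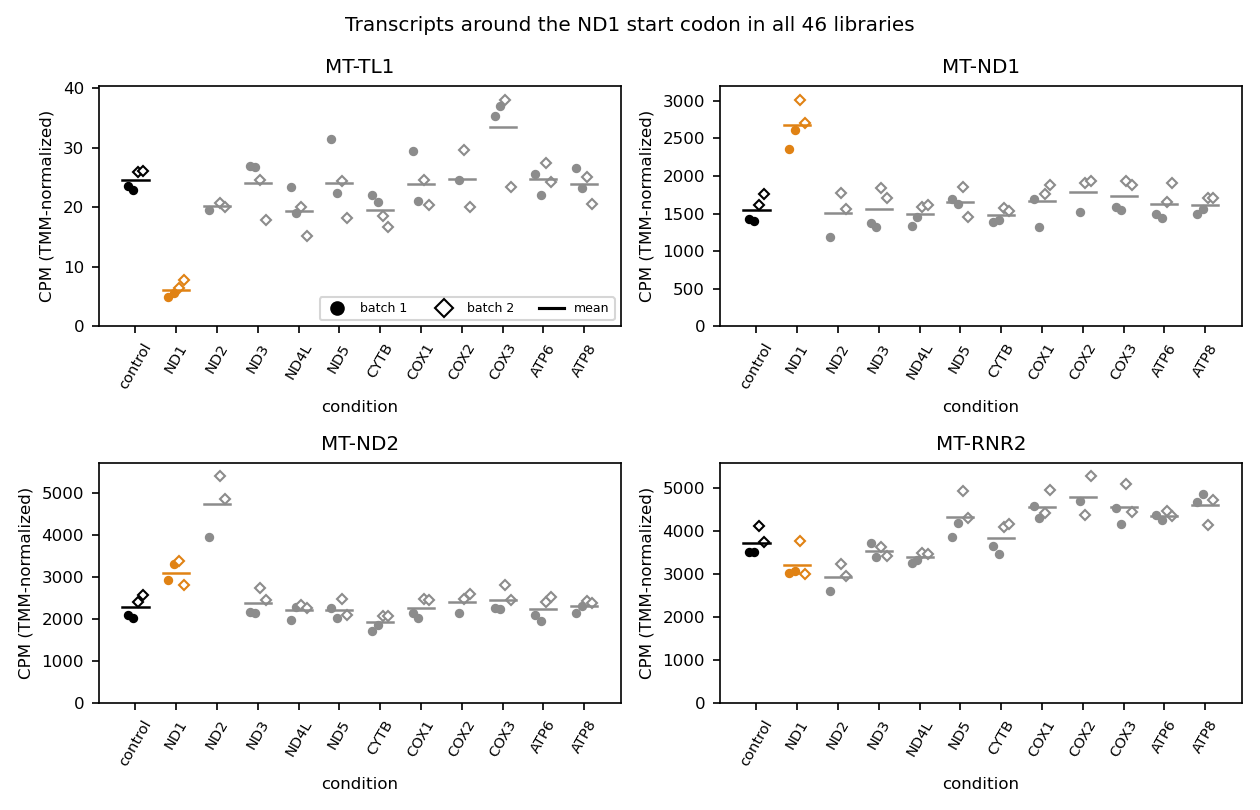
CPM (y axes, from 0) of MT-TL1, MT-ND1, MT-ND2 and MT-RNR2 in the 46 libraries of 12 conditions, with filled circles for batch 1, open diamonds for batch 2 and a line at the mean. The ND1 libraries (orange) lie below all others for MT-TL1, where the highest is 7.75 CPM, and above all others for MT-ND1, where the lowest is 2358 CPM.

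The same transcripts were then read in the other treatments. MT-TL1 ranged from 15.2 to 38.0 CPM over the 42 libraries without the ND1 chimera, and its next lowest condition mean was 19.4 ± 3.35 CPM upon ND4L silencing (SD, n = 4) against 6.15 ± 1.23 CPM upon ND1 silencing (SD, n = 4). Against the mean of the other 10 treatments, a contrast that uses no control library, MT-TL1 was lower by 1.93 on the log2 scale, written as a difference of -1.93 (standard error 0.13, adjusted p = 3.49e-16). In the same contrast MT-ND1 was higher by 0.74 (standard error 0.047, adjusted p = 2.66e-17). MT-ND1 means in the other treatments ran from 1476 ± 86.9 CPM with CYTB (SD, n = 4) to 1791 ± 231 CPM with COX2 (SD, n = 3), near the control mean of 1548 ± 169 CPM (SD, n = 4). The highest single library among them, at 1938 CPM, stayed under the lowest ND1 library.

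For MT-ND2, ND1 silencing gave the second highest mean of the 12 conditions, 3108 ± 281 CPM (SD, n = 4), after ND2 silencing at 4744 ± 738 CPM (SD, n = 3). The other 9 treatments had means of 1925 to 2448 CPM. Against the mean of the other 10 treatments MT-ND2 was higher by 0.36 (standard error 0.044, adjusted p = 3.91e-07), and against the mean of ND2, ND3, ND4L and ND5, which includes the treatment aimed at MT-ND2 itself, by 0.20 (standard error 0.048, adjusted p = 0.0724). MT-RNR2 was lower than in the other 10 treatments (difference -0.33, standard error 0.048, adjusted p = 3.90e-05), a call kept without each ND1 library in turn. Its condition means ran from 2924 ± 317 CPM upon ND2 silencing (SD, n = 3) to 4772 ± 454 CPM upon COX2 silencing (SD, n = 3). ND1 silencing stood second lowest at 3207 ± 365 CPM (SD, n = 4), within the spread of its neighbours ND2 and ND4L, and the difference from the other 4 complex I treatments was -0.12 (standard error 0.050, adjusted p = 0.279).

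Over the whole transcriptome, few genes passed the threshold. Of the 20272 genes tested, 18 were altered at an adjusted p under 0.05 (0.0888%), 10 higher (0.0493%) and 8 lower (0.0395%), and 15 of them lie outside mtDNA. The median size of the 18 log2 differences was 0.33. At an unadjusted p under 0.05 there were 2374 genes (11.7%), 1311 higher (6.47%) and 1063 lower (5.24%). In 13 of the 18 the 4 ND1 libraries and the 4 control libraries did not overlap, a state met by 4.2% of all genes tested (2.35% higher, 1.85% lower). In 17 they did not overlap within either batch, against 6.46% of all genes on the higher and 5.21% on the lower side. No gene passed the threshold for a difference between the batches (0%, edgeR interaction, 817 genes at an unadjusted p under 0.05). The count depended on the fit: it was 78 with the replicate number as a block in place of the batch, among them all 18, and 199 with DESeq2 and a batch term (155 higher, 44 lower), which called each of the 8 among the 18 to which it gave an adjusted p. It was 31 without ND1 replicate 1, 10, 6 and 9 without ND1 replicates 2, 3 and 4, and 6, 13, 8 and 5 without control replicates 1, 2, 3 and 4. The calls of MT-TL1, MT-ND1, MT-ND2, MTND2P28 and TXNIP were made in all 8 of these fits, that of LDHA in 5 and those of the other 12 genes in 0 to 3, with no change of direction. In the fit least favourable to it, each of those 12 had an adjusted p of 0.189 to 0.379.

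Among the genes that were lower, TXNIP had the smallest p outside mtDNA and its pseudogenes. TXNIP (thioredoxin interacting protein, which restrains glucose uptake and is a target of the glucose-sensing factor MondoA) was at 23.7, 26.4, 34.2 and 31.5 CPM in the ND1 libraries. In the control it was at 35.1, 33.1, 46.2 and 41.9 CPM. The ranges met across batches and were apart within each, and each ND1 library held 69.3% to 77.6% of its batch's control level (log2 difference -0.44, standard error 0.077, adjusted p = 0.00280, edgeR). The control had the highest TXNIP mean of the 12 conditions, 39.1 ± 6.06 CPM (SD, n = 4). The 11 treatments lay between 23.0 and 30.1 CPM with ND1 at 28.9 ± 4.77 CPM (SD, n = 4), and against the mean of the other 10 treatments the log2 difference was 0.13 (standard error 0.058, adjusted p = 0.419). ARRDC4, the other arrestin-like target of MondoA, was at 48.4 to 56.6 CPM in the ND1 libraries and 59.2 to 68.7 CPM in the control (log2 difference -0.26, adjusted p = 0.0784, and a call with the replicate block). Of the factors themselves, MLXIPL differed by -0.29 (adjusted p = 0.230), MLXIP by -0.10 (adjusted p = 0.464) and MLX by 0.07 (adjusted p = 0.721).

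NSUN6, an RNA methyltransferase that modifies cytosines in tRNAs and mRNAs, fell by a similar size in each batch. Its ND1 libraries stood at 20.1, 19.9, 19.3 and 19.8 CPM and its control libraries at 23.9, 25.0, 24.2 and 25.7 CPM, without overlap (log2 difference -0.32, standard error 0.068, adjusted p = 0.0359). FLRT2, a cell surface protein of adhesion and guidance, was at 33.1 to 36.5 CPM against 40.2 to 43.1 CPM in the control (-0.26, adjusted p = 0.0455). ZNF623, a zinc finger gene, was at 29.1 to 32.8 CPM against 36.4 to 40.9 CPM (-0.29, adjusted p = 0.0455). None of these 3 groups overlapped. SLC4A8, a bicarbonate transporter, was at 3.32 to 3.91 CPM against 5.20 to 5.87 CPM (-0.59, standard error 0.13, adjusted p = 0.0455). The remaining lower genes are noncoding. AC015813.6 differed by -0.34 (adjusted p = 0.0359), and LINC00957 by -1.63 (standard error 0.36, adjusted p = 0.0456) on 3 to 10 counts a library against 13 to 21, a call that was lost without a filter on low counts.

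Apart from the pseudogene MTND2P28, LDHA had the smallest p among the genes that rose outside mtDNA. LDHA (lactate dehydrogenase A, which turns pyruvate into lactate and so restores NAD+ for glycolysis) was at 875, 895, 875 and 763 CPM in the ND1 libraries. The control libraries were at 760, 766, 714 and 667 CPM. ND1 replicate 4 overlapped the control of batch 1 and lay above that of its own batch, and the log2 difference was 0.23 (standard error 0.045, adjusted p = 0.0138). The call was lost without ND1 replicate 3 (0.19, adjusted p = 0.225), without control replicate 1 (0.23, adjusted p = 0.0711) and without control replicate 4 (0.22, adjusted p = 0.141). LDHA was also higher than in the other 4 complex I treatments (0.20, standard error 0.035, adjusted p = 0.00321), whose means were 724 to 758 CPM against 852 ± 60.1 CPM upon ND1 silencing (SD, n = 4), a call lost without ND1 replicate 3 (0.16, adjusted p = 0.179). COX2 silencing had a like mean of 852 ± 73.7 CPM (SD, n = 3), and the difference from all 10 other treatments did not pass (0.13, adjusted p = 0.117).

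FABP5, a carrier of fatty acids in the cytosol, was at 76.7, 84.7, 88.2 and 70.9 CPM in the ND1 libraries and at 62.6, 66.5, 66.7 and 59.95 CPM in the control. These ranges did not overlap, and the log2 difference was 0.33 (standard error 0.067, adjusted p = 0.0359). PROCR, the receptor of protein C, was at 25.5 to 28.4 CPM against 20.4 to 23.3 CPM (0.33, adjusted p = 0.0455), and CD63, a tetraspanin of late endosomes, at 221 to 244 CPM against 166 to 214 CPM (0.29, adjusted p = 0.0455). Neither stood apart from the other treatments, from whose mean PROCR differed by 0.04 (adjusted p = 0.822) and CD63 by -0.02 (adjusted p = 0.934). TIMM23, a channel subunit of the inner membrane translocase through which presequences such as pCox4 enter, was at 181 to 217 CPM against 156 to 186 CPM (0.22, standard error 0.048, adjusted p = 0.0455). The ranges overlapped across batches and not within them, and TIMM23 may share reads with its copy TIMM23B. LINC02001 differed by 0.30 (adjusted p = 0.0359). FAM156A was at 3.16, 1.78, 4.05 and 7.14 CPM against 1.02, 2.25, 2.33 and 2.27 CPM, with overlap in batch 1 (1.00, standard error 0.22, adjusted p = 0.0455), and it may share reads with its copy FAM156B. With the trend on gene length removed, the calls of FABP5, PROCR, CD63, TIMM23, LINC02001, ZNF623, FLRT2 and SLC4A8 were lost, and no direction changed.

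**Figure D3:**
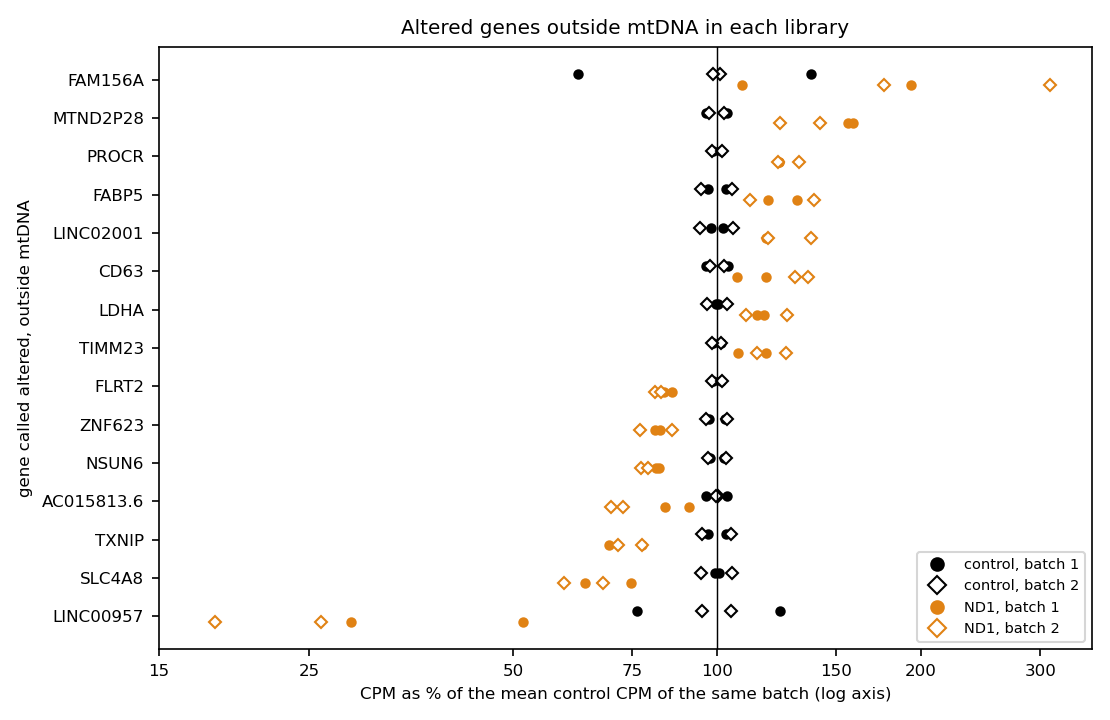
CPM of the 15 altered genes outside mtDNA as a percentage of the mean control of the same batch (x axis, log scale), with the 4 control libraries in black and the 4 ND1 libraries in orange, circles for batch 1 and diamonds for batch 2. Except for FAM156A in batch 1, the ND1 libraries of each gene lie on one side of the control libraries of their batch, as for TXNIP at 69.3% to 77.6%.

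The 10 protein-coding genes next in order of p were PRPS1, PSMD14, PSMB7, RAD54L, EIF2B3, TMSB4X, SRGAP3, SLC5A3, HOXB4 and EIF3K. Their adjusted p values ran from 0.0517 to 0.0741, and each was called with the replicate number as a block. PRPS1, which makes the activated ribose for nucleotide synthesis, was at 172 to 198 CPM against 149 to 177 CPM (log2 difference 0.22). PSMD14 and PSMB7, subunits of the proteasome, differed by 0.22 and 0.24, and EIF2B3 and EIF3K, factors of translation initiation, by 0.24 and 0.20. RAD54L, a helicase of homologous recombination, was at 36.5 to 40.5 CPM against 43.5 to 49.5 CPM without overlap (-0.23). HOXB4 was also without overlap, at 12.1 to 14.7 CPM against 15.2 to 17.99 CPM (-0.36). SLC5A3, the myo-inositol transporter, differed by -0.31, SRGAP3 by -0.45 and TMSB4X by 0.26.

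Nuclear genes of oxidative phosphorylation were read next, since complex I is assembled from products of both genomes. Over all genes tested the median log2 difference was 0.00, with 49.1% above 0, and over the 10400 genes with a mean of at least 10 CPM 16.1% were at an unadjusted p under 0.05. Of 37 nuclear complex I subunits tested 35 lay above 0, 17 of them at an unadjusted p under 0.05 and none below it on the lower side, with a median of 0.16 and none called in the fit over all genes. The subunits that join ND1 in one assembly module were NDUFA8 at 0.19 (adjusted p = 0.181), NDUFA3 at 0.20 (adjusted p = 0.435) and NDUFA13 at -0.13 (adjusted p = 0.840). The counts of NDUFA13 were few and uneven, at 166, 62, 181 and 168 in the control and 120 to 168 in the ND1 libraries. Medians of the other modules were 0.10 for Q, 0.16 for N, 0.19 for ND2, 0.17 for ND4, 0.17 for ND5 and 0.15 for the rest, against 0.19 over the 3 subunits of the ND1 module. With the trend on gene length removed the ND1 module was at 0.11, ND4 at 0.09 and Q at 0.13, so the order of the modules depended on that setting. NDUFB9, a subunit of the membrane arm, differed by 0.24 (adjusted p = 0.0802) and was called with the replicate block. Among 20 assembly factors of complex I, 18 lay above 0 with a median of 0.10. NDUFAF2 had the smallest p of these factors, at 0.26 (adjusted p = 0.197).

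The same direction was seen in complexes that hold no ND subunit. Medians were 0.05 over 4 subunits of complex II (0.092 with the length trend removed), 0.15 over 9 of complex III, 0.18 over 11 of complex IV and 0.19 over 18 of complex V, with 41 of these 42 genes above 0 and none called. Examples are COX4I1 of complex IV, at 266, 276, 283 and 255 CPM against 247, 257, 230 and 202 CPM (0.21, adjusted p = 0.0884), and SDHB of complex II (0.18, adjusted p = 0.148). Over all 79 nuclear subunits, 45 were at an unadjusted p under 0.05, all on the higher side, which is 57.0% of them against 11.7% of all genes tested. The 4 ND1 libraries were uneven: the median of the 79 genes against the control of the same batch was 0.05, 0.20, 0.27 and 0.10 in replicates 1 to 4. Between control replicates of one batch it was 0.03 and 0.07, so the value of ND1 replicate 1 was no larger than a difference between controls. With the trend on gene length removed the median was 0.12, and against the other 10 treatments it was 0.09 with 71 of 79 above 0.

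Ribosomal protein genes gave a like picture. Of 79 cytosolic ribosomal protein genes tested, 78 lay above 0 with a median of 0.18, and none was called. At an unadjusted p under 0.05 were 56 (70.9%), against 11.7% of all genes and 16.1% of those with a mean of at least 10 CPM. RPL10 was at 1103, 1218, 1196 and 1065 CPM against 1051, 1055, 965 and 960 CPM (0.19, adjusted p = 0.0884), and RPS3 differed by 0.22 (adjusted p = 0.119). Here too replicate 1 was lowest, with medians of 0.05, 0.22, 0.31 and 0.14 in the 4 ND1 libraries and 0.08 and 0.07 between control replicates. Of 82 mitochondrial ribosomal protein genes 77 lay above 0 with a median of 0.13, or 0.073 with the trend on gene length removed. MRPS21 had the smallest p of these genes (0.25, adjusted p = 0.0741, a call with the replicate block). Of 31 proteasome subunits 30 lay above 0 with a median of 0.14, and 21 (67.7%) were at an unadjusted p under 0.05. None was called, and with the block 3 were (PSMB7, PSMC1 and PSMD14), where 78 of 20272 genes were called in all. The calls depended on the fit. The 8 libraries alone gave 30 cytosolic ribosomal protein genes and 8 proteasome genes higher, where 204 of 17681 genes were called higher in all. Without a filter on low counts 53 cytosolic ribosomal protein genes were called, where 290 of 47354 genes were called in all. With DESeq2 5 or 3 were called, where all calls were 199 of 6598 genes with a batch term and 203 of 9267 after removeBatchEffect. With the GC trend removed 1 was called, where 143 of 20272 genes were. The count was 0 with the replicate block, other size factors, a stricter filter, the length trend removed, either batch alone or any library left out.

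**Figure D4:**
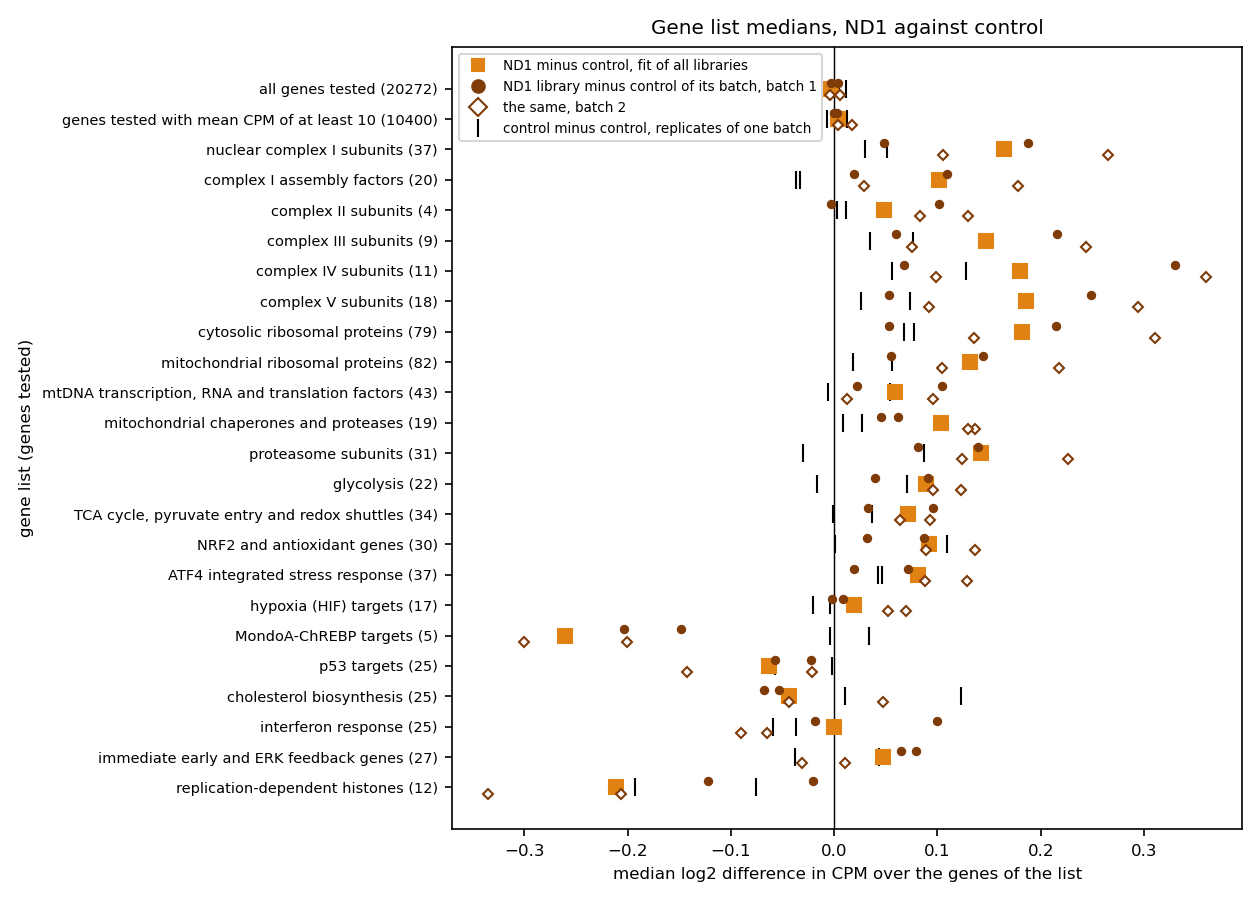
Median log2 difference in CPM (x axis) over the tested genes of each list, with squares for the fit of all libraries, brown circles and diamonds for single ND1 libraries against the control of their batch (batch 1 and batch 2), and black bars for one control replicate against the other of its batch. All genes tested lie at 0.00, cytosolic ribosomal proteins at 0.18 with single libraries from 0.05 to 0.31, and the genes around TXNIP at -0.26.

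Other mitochondrial lists had medians of 0.06 to 0.10. Of 43 genes for mtDNA transcription, RNA processing and translation, 35 lay above 0 with a median of 0.06 (0.037 with the length trend removed), led by SSBP1, the single-stranded DNA binding protein of mtDNA (0.28, adjusted p = 0.0927). Of 19 chaperones and proteases 16 lay above 0 with a median of 0.10, and PHB had the smallest p (0.20, adjusted p = 0.145). Of 34 genes of the TCA cycle, pyruvate entry and redox shuttles 29 lay above 0 with a median of 0.07, and PDHA1, IDH3B and PDP1 (0.17, 0.22 and 0.26, adjusted p from 0.0793 to 0.131) were called with the replicate block. None of these 3 lists had a member called in the fit over all genes.

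Among 22 glycolysis genes 16 lay above 0 with a median of 0.09, LDHA was called and 7 were at an unadjusted p under 0.05 (31.8% against 11.7% of all genes and 16.1% of those with a mean of at least 10 CPM). ENO1 was at 2950 to 3303 CPM against 2458 to 3016 CPM (0.17, adjusted p = 0.113) and LDHB differed by 0.23 (adjusted p = 0.145). LDHA is known to answer to the hypoxia factor HIF as well, but it was counted with glycolysis and not in the list of HIF targets. Of the 17 targets tested in that list, 9 lay above 0 with a median of 0.02 (0.038 with the length trend removed). None of the 17 was at an unadjusted p under 0.05, and a part of HIF in the LDHA difference was not tested. The 5 genes of the TXNIP list had a median of -0.26 with 1 called.

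Stress lists held no call in the fit over all genes. Of 37 genes of the ATF4 integrated stress response 27 lay above 0 with a median of 0.08 and 7 at an unadjusted p under 0.05, which is 18.9% against 11.7% of all genes and 16.1% of those with a mean of at least 10 CPM. DDIT3, which encodes CHOP, was at 8.24 to 11.9 CPM against 5.97 to 9.30 CPM (0.37, adjusted p = 0.104). SARS differed by 0.17 (adjusted p = 0.0884) and STC2 by 0.20 (adjusted p = 0.132), and both DESeq2 fits called these genes higher. SARS was also called in the 8 libraries alone and with the GC trend removed. ASNS (-0.08, adjusted p = 0.915) and CHAC1 (-0.11, adjusted p = 0.827), which ATF4 drives, were among the 10 members below 0. Of 30 NRF2 and antioxidant genes 26 lay above 0 with a median of 0.09 (0.061 with the length trend removed). PRDX4 (0.21, adjusted p = 0.0784) and HMOX1 (0.42, adjusted p = 0.190) were called with the replicate block. Medians were -0.06 over 25 p53 targets, -0.04 over 25 cholesterol genes, 0.00 over 25 interferon response genes, 0.05 over 27 immediate early and ERK feedback genes (0.013 with the length trend removed) and -0.21 over 12 replication-dependent histone genes. Between control replicates of one batch the histone median was -0.08 and -0.19. The HEK293 markers had a median of 0.09 over 7 genes, with none called.

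To read what set ND1 silencing apart from silencing of other mRNAs, it was compared with the other treatments without the control. Against the mean of the other 10 treatments 11 genes were altered (0.0543%, 4 higher and 7 lower), and against the mean of ND2, ND3, ND4L and ND5 12 genes (0.0592%, 6 higher and 6 lower). With the replicate block these counts were 28 and 51. Without ND1 replicate 1, 2, 3 or 4 the first was 44, 8, 8 and 6 and the second 109, 4, 5 and 19. The 2 contrasts called 15 genes between them and shared 8. They are not independent, as ND2, ND3, ND4L and ND5 are among the other 10 treatments and the ND1 libraries are the same. MT-TL1 and MT-ND1 had the smallest p in both, and FAM156A was higher in both (0.76 and 0.88, adjusted p = 0.0128 and 0.00814). Both calls of FAM156A were lost without ND1 replicate 4 (0.44 and 0.56, adjusted p = 0.360 and 0.167), and that of MTND2P28 against the other 10 treatments (0.29, adjusted p = 0.00304) without ND1 replicate 2 (0.25, adjusted p = 0.135).

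Lower in both contrasts besides MT-TL1 were MAN2B1, PLXNA3, LAMB2, SYTL1 and SLC9A3-AS1. MAN2B1, the lysosomal alpha-mannosidase, was at 61.7, 55.8, 70.7 and 70.2 CPM in the ND1 libraries, against a mean of 80.1 CPM in the other 10 treatments (log2 difference -0.30, adjusted p = 3.74e-05). Its mean of 64.6 ± 7.15 CPM (SD, n = 4) was the lowest of the 12 conditions, below the control at 74.8 ± 6.27 CPM (SD, n = 4), from which the difference did not pass (-0.21, adjusted p = 0.0998). Without ND1 replicate 2 the difference of MAN2B1 from the other 4 complex I treatments moved from -0.27 (adjusted p = 0.00350) to -0.24 (adjusted p = 0.105). PLXNA3, a semaphorin receptor, differed from the other 10 by -0.33 (adjusted p = 0.00716), LAMB2, a laminin chain, by -0.25 (adjusted p = 0.0252), SYTL1, a Rab effector of vesicle traffic, by -0.60 (adjusted p = 0.0283) and the antisense RNA SLC9A3-AS1 by -0.44 (adjusted p = 0.0283). Each of PLXNA3, LAMB2, SYTL1 and SLC9A3-AS1 was called in 1 or 2 of the 4 fits that left out an ND1 library, in either contrast. Against the other 4 complex I treatments LDHA, FABP5 (0.26, adjusted p = 0.0236), PSAT1 of serine synthesis (0.17, adjusted p = 0.0481) and the pseudogene RANP1 (0.67, adjusted p = 0.0429) were higher as well. FABP5 and RANP1 were called in 2 and PSAT1 in 1 of the 4 fits without an ND1 library.

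**Figure D5:**
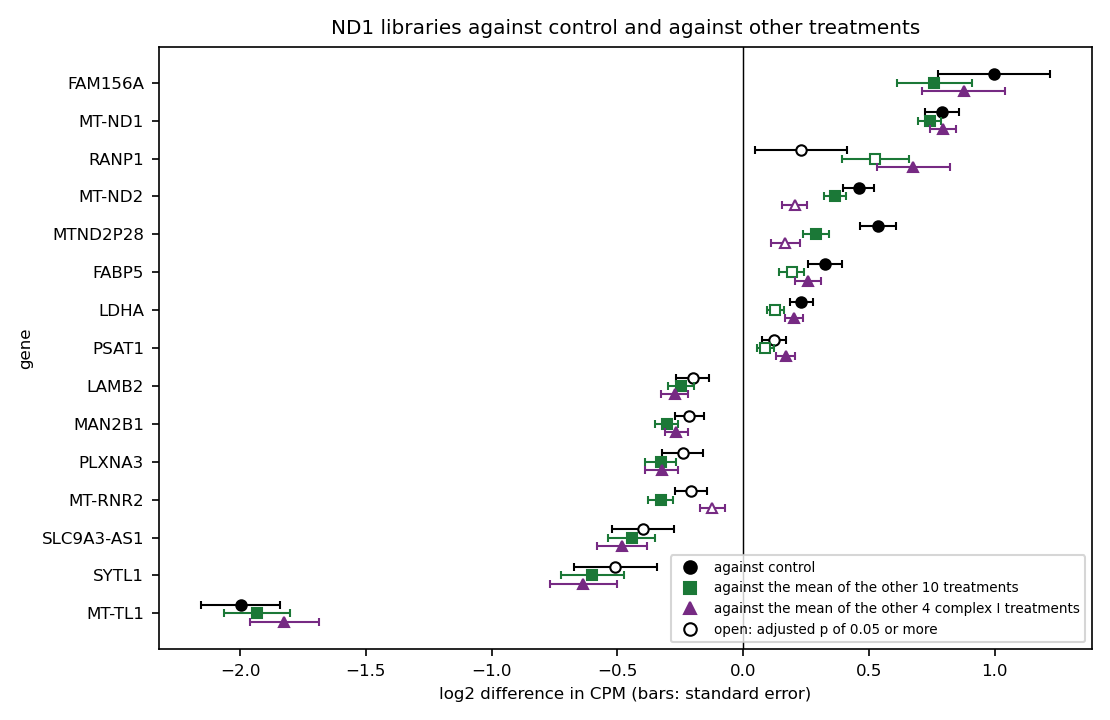
Log2 difference in CPM (x axis, bars are standard errors) of the ND1 libraries against the control, the mean of the other 10 treatments and the mean of the other 4 complex I treatments, for the 15 genes called in either of the last 2 contrasts, with open symbols where the adjusted p was 0.05 or more. MT-TL1 lies near -2 and MT-ND1 between 0.74 and 0.79 in all 3 contrasts, whereas MT-ND2 runs from 0.46 against the control to 0.20 against complex I treatments.

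Finally, transcripts that carry stretches of the target site were looked up. Among GENCODE 29 transcripts of the genes tested, the whole site of 17 bases occurred in MT-ND1 and in no other gene. Runs of at least 13 of its bases on the sense strand occurred in 9 genes tested (0.0444%): MT-ND1, TMEM26, ABCB8, C22orf23, PHF2, NME2, EP400P1, SUGT1P3 and NME1-NME2. Of these only MT-ND1 was called. ABCB8, an ATP-binding transporter of the inner mitochondrial membrane, was at 40.6 ± 4.70 CPM against 45.2 ± 6.99 CPM (SD, n = 4 each, log2 difference -0.15, adjusted p = 0.278), and PHF2, a histone demethylase, differed by -0.07 (adjusted p = 0.625). TMEM26, with a mean of under 1 CPM, differed by -1.02 (standard error 0.40, adjusted p = 0.269). SUGT1P3 and NME1-NME2 also had means of under 1 CPM. Runs of at least 10 bases occurred in 923 genes tested (4.56%), with a median log2 difference of -0.03 and 553 below 0. Over all 20272 genes tested the median was -0.003, with 10328 below 0. Medians were -0.015 for runs of at least 8 bases (9827 genes) and -0.07 for at least 13 (9 genes). The 3 called with at least 10 bases were MT-ND1, FLRT2 and SLC4A8, against 18 called of all genes tested (0.0888%). The longest run was taken over all annotated transcripts of a gene, and long transcripts have more places for a run. None of these medians was adjusted for gene length. The calls of FLRT2 and SLC4A8 were lost with the trend on gene length removed. Whether genes with partial matches differ from the others was not tested.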

How the data were processed

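HEK293T cells were measured by poly(A)-enriched RNA-seq. The authors deposited a table of raw read counts per gene, 58735 genes by 46 libraries, whose identifiers all match GENCODE 29 (GRCh38). The aligner, counter and strand setting are not given in the sources used here. The submitters' processing notes name R 4.3.0, DESeq2 1.40.2 and limma 3.56.2. Groups were taken from the sample labels and batches from the replicate numbers.

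Counts were scaled by TMM and filtered with filterByExpr (minimum count 10, 20272 genes left, 11381 genes held no count at all). A quasi-likelihood model with condition and batch was fitted to all 46 libraries with edgeR 4.0.16 in R 4.3.3, with Benjamini-Hochberg adjustment over all genes tested and a threshold of 0.05. ND1 was compared with the control, with the mean of the other 10 treatments and with the mean of ND2, ND3, ND4L and ND5. The spread between libraries is that of separate treatments of 1 cell line. The fit was tested on simulated data. The members and gene lists were chosen with earlier results of these data known, and the lists are described by counts and medians with no test of their own.

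The genes named are the mtDNA mRNAs and rRNAs, the tRNA genes next to MT-ND1 and its pseudogenes, every called gene, the 10 protein-coding genes next in order of p with a mean of at least 1 CPM, every gene called against other treatments, and up to 3 members of each list with the lowest p. ARRDC4, MLX, MLXIP, MLXIPL, ENO1, LDHB, ASNS, CHAC1, HMOX1, MT-TA, MT-TV and the genes that match the target site were named after their values were seen. Some members of the lists are not reported here.

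Replicate numbers mark a shared batch, prepared on the same day. Deviations from the group means, which carry the batch, correlated between ND1 and control libraries of the same number at r = 0.353, 0.591, 0.549 and 0.486 over genes, yet ND1 replicate 1 correlated more with control replicate 2 (0.525). With the batch taken out, r was 0.118 in batch 1 and 0.215 in batch 2, so pairing beyond the batch rests on weak values. The replicate block is given beside each count. Alternatives were DESeq2 1.42.0 with a batch term or after removeBatchEffect (limma 3.58.1), other size factors and filters, other sets of libraries, removal of trends on gene length and GC content, and each library left out in turn. Depth, from 19944731 to 25979534 counts in the 8 libraries, limits precision for genes with few counts. Pseudogenes and overlapping genes may share reads.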

Additional observations from a re-analysis of the deposited data

Results flagged for a closer look

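In 5 of the 106 groups of 4 libraries examined, the highest or lowest library lay far from the other 3 by Dixon's ratio, where 5.3 would be met by chance. LDHA was lowest in ND1 replicate 4, at 762.9 CPM. ZNF623 was lowest in ND1 replicate 3, at 29.1 CPM. SLC4A8 was highest in control replicate 4, at 5.87 CPM. FAM156A was lowest in control replicate 1, at 1.02 CPM. MT-RNR2 was highest in ND1 replicate 3, at 3751 CPM, while the other 3 ND1 libraries lay at 2981 to 3072 CPM.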

How the results depend on the processing

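The counts of altered genes depended on the fit, and the cause was not tested. Against the control, the 18 genes became 2 without a batch term, 290 with no filter on low counts, 279 in a fit of the 8 libraries alone, 143 with the trend on GC content removed, 199 with DESeq2 and a batch term and 203 with DESeq2 after removeBatchEffect. Batch 1 alone gave 5 and batch 2 alone 11, and leaving out 1 library gave 5 to 31. Against the other 10 treatments, the 11 genes became 3 without a batch term, 172 with no filter, 7 in batch 1, 19 and 17 with the trends on gene length and GC content removed and 57 with DESeq2, and 6 to 44 without 1 ND1 library. Against the other 4 complex I treatments, the 12 genes became 2 without a batch term, 273 with no filter, 21 with a minimum count of 50, 7 and 5 in batches 1 and 2, 71 with the GC trend removed and 202 with DESeq2, and 4 to 109 without 1 ND1 library. With the replicate block in place of the batch the 3 counts were 78, 28 and 51, and all 18 genes of the main comparison were among the 78. Without a batch term only MT-ND1 and MT-TL1 were called against the control.

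MT-ND1 was called under every alternative run, with log2 differences of 0.70 to 0.82. MT-TL1 was called wherever it had an adjusted p. The difference in the share of counts on mtDNA stayed within the spread of replicates, from -0.295 to 0.0233 percentage points as each library was left out. No result changed direction past the threshold. Of the alternatives for single genes and lists, 224 lost a call, 81 gained one, and 1627 were counted as the same. For a gene with a call, the same means that the call was kept. Without a call to compare, it means a value within the standard error of the main fit. For a list, it means a median that moved by no more than the SD of its medians in single ND1 libraries. The remaining 43 values or list medians moved beyond these limits. The tRNA genes with a mean under 3 CPM, 11 of 19, are limited by depth.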
